A study of Mus musculus with 60 samples.

Results

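Nuclear receptors are transcription factors that are switched by small lipophilic ligands or act without a known ligand. The 44 genes described here are members of this family chosen by symbol, of 20018 named genes on the array. Each was read from the probe whose RefSeq accession matched the symbol, and where a gene had several probes, from the brightest in the tissue channel. The tissues were lung, liver and forestomach, the squamous part of the stomach, from 20 male mice about 10 weeks old of the Muta Mouse strain, which all carry a transgene for mutation tests. The mice had received benzo(ghi)perylene (BghiP), a polycyclic aromatic hydrocarbon, in olive oil by gavage for 28 days. Mice 1 to 5 received olive oil alone (D0), mice 6 to 10 received 6.25 mg/kg-bw/day (D1), mice 11 to 15 received 12.5 mg/kg-bw/day (D2) and mice 16 to 20 received 25 mg/kg-bw/day (D3). Tissues were taken 72 hours after the last dose, and a mouse number stands for the same animal in all 3 tissues. Each array held RNA of 1 tissue of 1 mouse, labelled with Cy5, beside a universal mouse reference RNA labelled with Cy3. Levels below are log2 ratios of tissue to reference, so that 0 is the level of the reference pool and 1 unit is a factor of 2. Levels of different genes cannot be set against each other on this scale.

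Most members bind DNA at copies of the hexamer AGGTCA, as homodimers, as monomers or as heterodimers with a retinoid X receptor (RXR), and exchange corepressors for coactivators when a ligand is bound. In liver they set much of metabolism: HNF4-alpha (Hnf4a) maintains the hepatocyte programme, FXR (Nr1h4) senses bile acids and acts through the corepressor SHP (Nr0b2), LXR-alpha (Nr1h3) senses oxysterols, CAR (Nr1i3) and PXR (Nr1i2) respond to foreign compounds, and PPAR-alpha (Ppara) drives fatty acid oxidation. The NR4A receptors (Nr4a1, Nr4a2, Nr4a3) are immediate early genes, and the estrogen-related receptors (Esrra, Esrrb, Esrrg) drive mitochondrial energy genes.

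Lung arrays had 34.9% to 58.6% of probes well above background in Cy5, liver arrays 36.3% to 48.3% and forestomach arrays 21.3% to 53.3%. Markers of each tissue were high on all of its own arrays, with summed Cy5 signals (log2) at 20.1 to 20.7 for hepatocyte markers in liver, 18.8 to 20.7 for alveolar type 2 cell markers in lung and 17.7 to 20.0 for keratinocyte markers in forestomach. Some arrays also held markers of another tissue. The D0 forestomach of mouse 2 had alveolar type 2 markers at 18.2, against at most 11.4 on the other forestomach arrays. The D0 lung of mouse 1 had skeletal muscle markers at 18.1 and keratinocyte markers at 17.3, and the D3 lung of mouse 20 had hepatocyte markers at 13.7, against 9.1 to 12.1 on the other lung arrays. Glandular stomach markers (Atp4a, Atp4b, Gkn1, Gkn2, Muc5ac, Tff1) ranged from 8.7 to 20.8 over the 20 forestomach arrays. The part of these markers in the results below was not tested, other than that of the glandular stomach markers in forestomach, which were fitted as a covariate. Counts of calls between D0 tissues were 28, 15 and 29 (liver and lung, forestomach and lung, liver and forestomach) without mouse 1 lung and mouse 2 forestomach, against 28, 15 and 28 with them. Lung and forestomach were hybridized on 5 shared slides and liver on 3 others, so that liver and slide cannot be told apart. On the shared slides lung stood in row 1 and forestomach in row 2, so that this pair of tissues and row cannot be told apart. Each dose had its own column on every slide, so that dose and column cannot be told apart.

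Of the 44 receptors, 33 passed the filter in lung (at least 5 of 20 arrays well above background), 37 in liver and 34 in forestomach. Nr0b1 (DAX1), Nr2e1 (TLX), Nr2e3 (the photoreceptor receptor PNR), Hnf4g, Rorb and Nr4a3 did not pass in any tissue. Nr0b2, Nr1h4, Nr1i2, Nr1i3 and Hnf4a also did not pass in lung, Pgr did not pass in liver, and Nr1i3, Nr3c2, Pgr and Nr6a1 did not pass in forestomach. Pgr, the progesterone receptor, was well above background on 6 lung arrays, 0 liver arrays and 1 forestomach array. In bulk tissue, fewer cells of a type and less RNA per cell cannot be told apart.

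**Figure D1:**
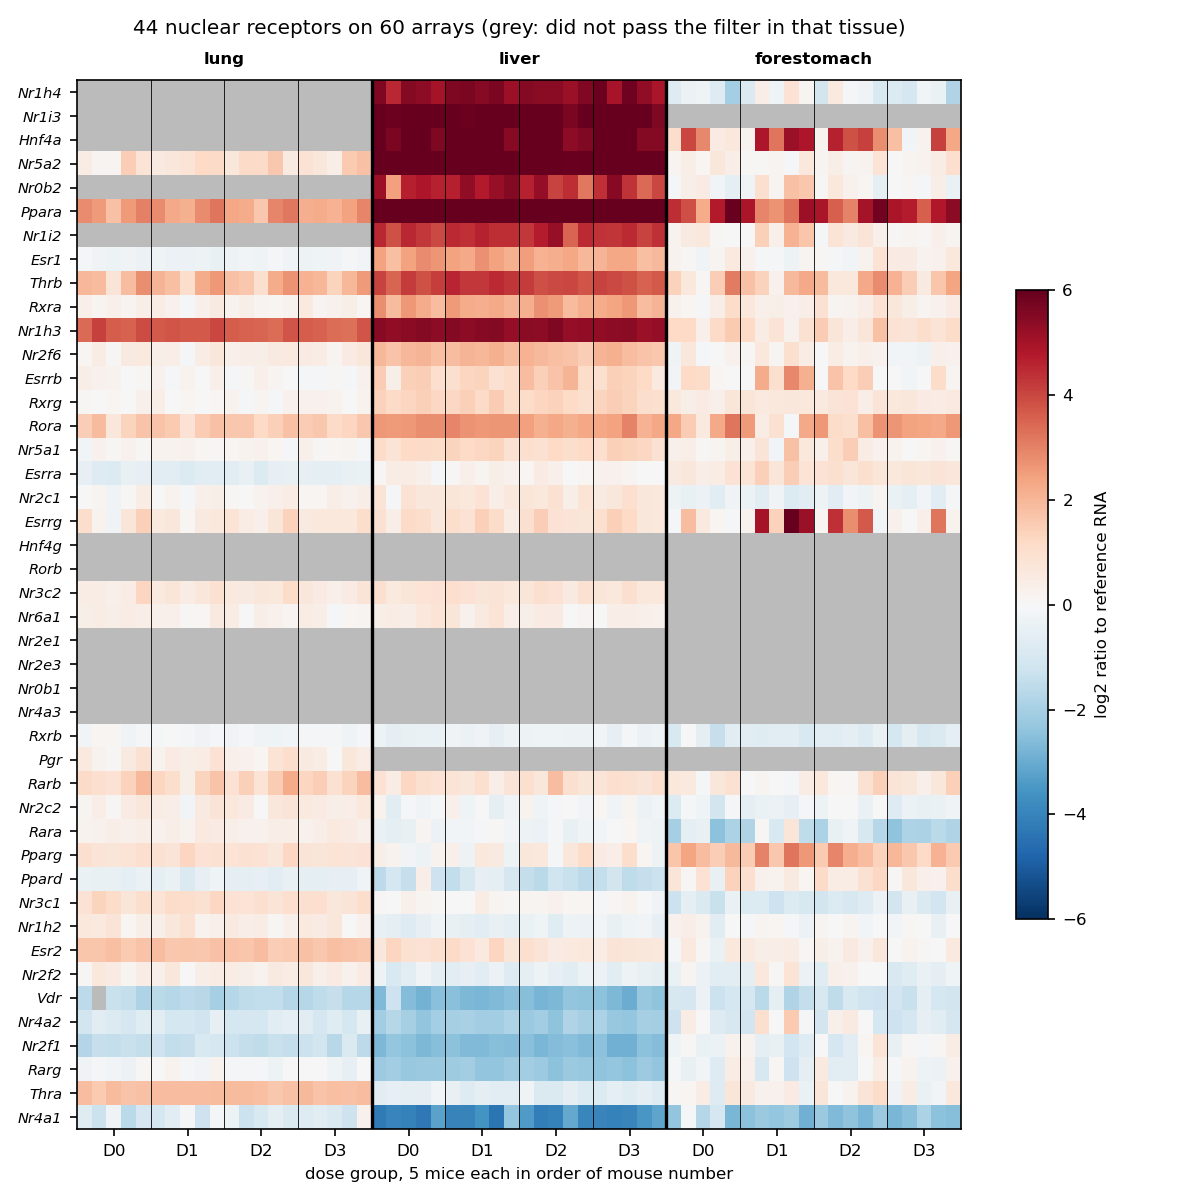
Log2 ratio to reference RNA (colour) of 44 nuclear receptors in rows, ordered by their liver minus lung difference, on 60 arrays in columns, grouped by tissue and dose with 5 mice each; grey marks receptors that did not pass the filter in a tissue, and 1 missing Vdr value in lung. The upper receptors are dark red on all 20 liver arrays, and Hnf4a and Esrrg vary between forestomach arrays of the same dose.

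The comparison of vehicle (D0) tissues asked how the receptors are distributed between organs without BghiP. Calls required an adjusted p no higher than 0.05 in limma together with a change of 1.5-fold or more. Between liver and lung, 28 of 37 tested receptors were called, 17 higher in liver and 11 lower, where 51.5% of all probes tested were called. Between liver and forestomach, 28 of 37 were called, 20 higher in liver and 8 lower, with 49% of all probes called. Between forestomach and lung, 15 of 30 were called, 6 higher in forestomach and 9 lower, with 39.2% of all probes called. Those counts include receptors that passed the filter only through the tissue where they were high. Where both tissues had to pass, 21 of 28 were called for liver and lung, where 50.8% of all probes were, 18 of 25 for liver and forestomach, against 50.2%, and 14 of 25 for forestomach and lung, against 41.9%. Centring each array on its median without loess gave 14 higher and 6 lower for liver and lung, 20 higher and 5 lower for liver and forestomach, and 0 higher and 10 lower for forestomach and lung. The median difference over all probes then moved from -0.06 to -0.42 for forestomach and lung, from -0.09 to -0.18 for liver and lung and from 0.05 to 0.29 for liver and forestomach.

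**Figure D2:**
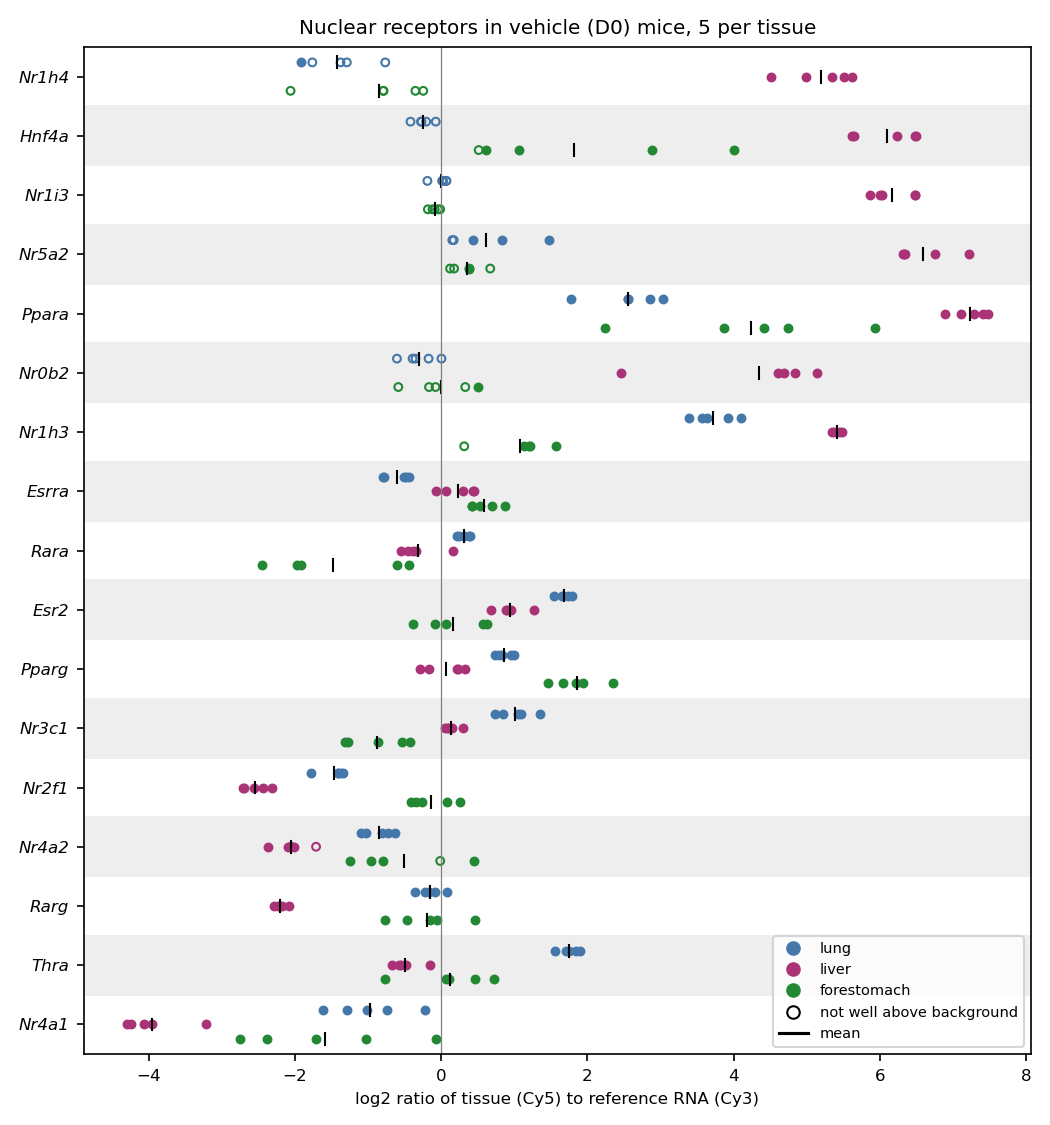
Log2 ratio to reference RNA in the 5 vehicle mice of each tissue (points, open where not well above background; black bars, means) for the receptors with the largest called fitted differences between tissues, placed by fitted liver minus lung difference, which gives no order among receptors with open points. The liver points of Nr1h4 (4.51 to 5.62) and Hnf4a (5.62 to 6.50) lie above all points of the other tissues, and those of Nr4a1 (-4.30 to -3.22) lie below them.

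Nr1h4, Hnf4a, Nr1i3, Nr5a2 and Ppara were among the receptors called higher in liver than in lung, and those dim in lung have no order by size. Nr1h4 was at 4.51, 4.99, 5.35, 5.52 and 5.62 in the 5 D0 livers, and its highest value in a D0 lung was -0.77. The liver minus lung difference was 6.62 (SE 0.32, adjusted p = 3.06e-11), with Nr1h4 well above background on only 1 of 5 D0 lung arrays, so that it was taken mostly against dim signals. Against forestomach, where 0 of 5 arrays had it above background, Nr1h4 was at least 55.4-fold higher in liver (fitted log2 difference 6.05, SE 0.32, adjusted p = 1.5e-10). Hnf4a was at 5.62, 5.64, 6.24, 6.49 and 6.50 in liver, and was not well above background on any D0 lung array, so that the fitted log2 difference of 6.35 (SE 0.52, adjusted p = 2.47e-08) was taken against dim signals. No bound is given for Hnf4a, because its Cy5 signals alone differed by more than its ratios did. Bounds given as a fold set the mean of the bright tissue against the mean of the dim arrays. Each dim array was taken at its lowest signal that counted as well above background, or at the gene's own signal where that was higher. Nr1i3 was at 5.87 to 6.48 in liver and was above background on no D0 array of the other tissues, at least 68.9-fold higher than in lung (fitted log2 difference 6.17, SE 0.13, adjusted p = 6.66e-16) and at least 66.5-fold higher than in forestomach (6.26, SE 0.13, adjusted p = 9.11e-16). Nr1i2 was at least 10.2-fold higher in liver than in forestomach, where 0 of 5 D0 arrays had it above background, and its fitted difference from lung, with 1 of 5 arrays above background, was 4.04 (SE 0.16). The 5 liver values of each of these receptors lay above all 10 D0 values of lung and forestomach.

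Nr5a2 (LRH-1), a monomeric receptor that drives bile acid synthesis genes, was at 6.32 to 7.22 in D0 liver and at 0.15 to 1.48 in lung (difference 5.98, SE 0.24, adjusted p = 3.38e-12), and it differed by 6.25 from forestomach (SE 0.24, adjusted p = 2.87e-12), where 1 of 5 arrays had it above background. In the D0 lungs of mice 2 and 3, Nr5a2 was not well above background. Ppara was at 6.90, 7.11, 7.29, 7.41 and 7.48 in liver, at 1.78 to 3.03 in lung and at 2.24 to 5.93 in forestomach, so that the 3 tissues differed stepwise, although lung and forestomach values overlapped. Its difference from lung was 4.68 in liver (SE 0.47, adjusted p = 2.69e-07) and 1.68 in forestomach (SE 0.47, adjusted p = 0.00753). Nr1h3 had the least spread of the receptors above background in D0 liver, with values of 5.34 to 5.49 in liver, 3.39 to 4.11 in lung and 0.31 to 1.57 in forestomach, and no overlap between tissues (liver minus forestomach 4.33, SE 0.19, adjusted p = 1.56e-11). Rxra, the RXR partner of most of these receptors, was 2.02 higher in liver than in lung (SE 0.21), Rxrg was 1.20 higher, and Rxrb was not called (-0.35, adjusted p = 0.109).

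Nr0b2, the SHP corepressor that FXR and LRH-1 induce, was at 2.46, 4.61, 4.69, 4.84 and 5.15 in the D0 livers and was not well above background on any D0 lung array. It was at least 18.0-fold higher in liver than in lung (fitted log2 difference 4.65, SE 0.39, adjusted p = 2.66e-08). Against forestomach, with 1 of 5 arrays above background, the fitted difference was 4.35 (SE 0.39, adjusted p = 8.67e-08). Its promoter is shown because it holds the letters TCAAGG, the front part of the extended site that LRH-1 and the estrogen-related receptors bind, at 2 places, 68 and 35 bases before the start. At least 2 copies on either strand stood in 0.922% of the 32851 RefSeq promoters searched (250 bases before the start, build GRCm38.p6), and at least 1 copy in 12.5%. The 250 bases before the Nr0b2 start, at chr4:133553126-133553375 on the plus strand, are given with these copies in capitals.
Nr0b2: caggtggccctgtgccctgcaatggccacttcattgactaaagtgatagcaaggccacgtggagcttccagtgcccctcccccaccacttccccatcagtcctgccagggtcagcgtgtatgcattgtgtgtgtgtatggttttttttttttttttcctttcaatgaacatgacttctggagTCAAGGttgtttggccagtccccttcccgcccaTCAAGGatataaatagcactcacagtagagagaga
A match of letters is a description and says nothing of binding in these tissues. AGGTCA, in either strand, stood in 14% of all promoters and in 10 of the 61 promoters (16.4%) of the 40 receptors searched. It stood before Nr0b1, Nr1h4, Nr5a2, Nr6a1, Pparg, Rarg, Rxra, Rxrg and Thrb. A direct repeat of AGGTCA with 1 base between the copies stood in 0.0335% of all promoters and before 0 of these receptors.

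Between liver and lung, the thyroid hormone and estrogen receptors differed in opposite directions by subtype. Thrb was at 3.50 to 4.20 in D0 liver and at 0.79 to 2.80 in lung (difference 2.08, SE 0.45), whereas Thra ran the other way, at -0.67 to -0.16 in liver and 1.56 to 1.90 in lung (difference -2.24, SE 0.21, adjusted p = 1.11e-07). Esr1, the alpha estrogen receptor, was at 1.81, 2.43, 2.43, 2.65 and 2.85 in liver and below 0 in all D0 lungs (difference 2.67, SE 0.18, adjusted p = 1.8e-09). Esr2, the beta receptor, was lower in liver than in lung (-0.74, SE 0.17) and lower still in forestomach (-1.52 against lung, SE 0.18). Against forestomach, both Esr1 (2.27, SE 0.18) and Esr2 (0.78, SE 0.17, adjusted p = 0.0011) were higher in liver. Esr1 was well above background in the D0 forestomachs of only mice 1 and 5, so that 2.27 was taken mostly against dim signals. In D0 lung, Esr1 was well above background in mice 1, 4 and 5. The retinoic acid receptor Rarg was lower in liver, at -2.28 to -2.09 against -0.36 to 0.08 in lung (difference -2.05, SE 0.18, adjusted p = 3.82e-08). Rarg was also lower in liver than in forestomach, at -2.28 to -2.09 against -0.77 to 0.46 (SE of the difference 0.18, adjusted p = 7e-08), a call lost when arrays were centred on the median without loess (-0.95, adjusted p = 0.206). The orphan receptor Nr2f1 (COUP-TFI) was at -2.72 to -2.31 in liver, -1.78 to -1.34 in lung and -0.41 to 0.25 in forestomach, with no overlap between tissues. It differed by -1.08 between liver and lung (SE 0.14, adjusted p = 6e-06) and by -2.41 between liver and forestomach (SE 0.14, adjusted p = 6.29e-10). Pparg, the fat cell PPAR, differed by -1.79 between liver and forestomach (SE 0.16, adjusted p = 1.03e-07). Fat cell markers summed to 8.6 to 8.8 in D0 liver and 8.6 to 15.4 (median 11.9) in D0 forestomach, and their part was not tested. Nr3c1, the glucocorticoid receptor, was lower in liver than in lung by its brightest probe (-0.88, adjusted p = 0.000303) but not by its other probe (0.03, adjusted p = 0.882).

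In forestomach, Nr1h3 was lower than in lung (difference -2.64, SE 0.19, adjusted p = 5.33e-08), as were Nr3c1 (-1.90, SE 0.17, adjusted p = 4.34e-07), Rara (-1.79, SE 0.31, adjusted p = 0.000216), Thra (-1.63, SE 0.21, adjusted p = 1.29e-05) and Esr2 (adjusted p = 4.43e-06). Rara values in forestomach spread widely, at -2.46, -1.98, -1.91, -0.60 and -0.44, and the 2 least negative came from mice 2 and 3, whose glandular stomach markers were at 20.7 on both arrays. Higher in forestomach were Ppara, Nr2f1 (1.33, SE 0.14, adjusted p = 2.31e-06), Esrra (1.19, SE 0.14, adjusted p = 3.85e-06), Pparg (0.99, SE 0.16, adjusted p = 0.000124) and Ppard (0.97, adjusted p = 0.0297; 0.0551 with mouse as a block, where both tissues of a mouse shared a slide, so that mouse and slide cannot be told apart). Hnf4a was also called (fitted difference 2.07, SE 0.53, adjusted p = 0.0039), against lung signals that were above background on 0 of 5 arrays, while 4 of 5 forestomach arrays had it above background. Hnf4a was at 4.01 and 2.88 in mice 2 and 3 and at 1.06, 0.62 and 0.51 in the other D0 forestomachs. Without the forestomach of mouse 2 and the lung of mouse 1, the Hnf4a difference was 1.51 (adjusted p = 0.00746), and without the forestomachs of mice 2 and 3 it was 0.98 (adjusted p = 0.00138). Of the other receptors just named, Ppard was not called without mice 2 and 3 (1.00, adjusted p = 0.0518), and the rest were called in both reduced sets, with Rara at -2.03 and -2.43, Nr1h3 at -2.75 and -2.42, and Ppara at 1.85 and 2.47. On log ratios centred on the median without loess, 0 of 5 of these genes other than Ppard were called, with differences of 0.92 for Hnf4a, 0.80 for Ppara, 0.43 for Nr2f1, 0.31 for Esrra and 0.07 for Pparg.

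Both NR4A genes that could be measured, Nr4a1 and Nr4a2, were lower in liver than in the other tissues. Nr4a1 (Nur77) was at -4.30, -4.24, -4.06, -3.96 and -3.22 in D0 liver, at -1.62 to -0.22 in lung and at -2.75 to -0.07 in forestomach, so that the liver values lay below all others. The liver minus lung difference was -2.98 (SE 0.42, adjusted p = 1.07e-05) and the liver minus forestomach difference -2.37 (SE 0.42, adjusted p = 0.000137). Nr4a2 (Nurr1) differed in the same direction, by -1.19 (SE 0.26, adjusted p = 0.000727) and -1.53 (SE 0.26, adjusted p = 9.04e-05). These differences rest partly on dim signals, since Nr4a2 was not well above background in the D0 livers of mice 2 and 5 and the forestomach of mouse 3. Nr4a3 was not well above background on any of the 60 arrays. Their promoters are shown because cyclic AMP signalling is a known inducer of the subfamily: each of the 3 held TGACG, the core of the cyclic AMP response element, at 4 places on either strand, and 0.137% of all promoters held 4 or more. At least 1 copy stood in 17.8% of all promoters, and TGACGTCA in 1.55%. The bases before the start of Nr4a1 lie at chr15:101266596-101266845 on the plus strand, those of Nr4a2 at chr2:57124004-57124253 on the minus strand and those of Nr4a3 at chr4:48045055-48045304 on the plus strand, and capitals mark TGACG or its reverse complement CGTCA.
Nr4a1: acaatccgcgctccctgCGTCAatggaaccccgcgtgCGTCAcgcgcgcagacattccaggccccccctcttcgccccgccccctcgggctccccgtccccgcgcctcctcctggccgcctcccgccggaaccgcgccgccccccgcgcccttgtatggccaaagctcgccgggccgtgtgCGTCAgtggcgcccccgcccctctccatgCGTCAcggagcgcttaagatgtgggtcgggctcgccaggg
Nr4a2: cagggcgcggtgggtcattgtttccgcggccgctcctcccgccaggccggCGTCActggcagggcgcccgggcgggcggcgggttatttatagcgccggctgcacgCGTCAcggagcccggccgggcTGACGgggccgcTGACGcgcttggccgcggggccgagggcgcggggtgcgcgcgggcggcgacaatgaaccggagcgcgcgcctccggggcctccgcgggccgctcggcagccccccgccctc
Nr4a3: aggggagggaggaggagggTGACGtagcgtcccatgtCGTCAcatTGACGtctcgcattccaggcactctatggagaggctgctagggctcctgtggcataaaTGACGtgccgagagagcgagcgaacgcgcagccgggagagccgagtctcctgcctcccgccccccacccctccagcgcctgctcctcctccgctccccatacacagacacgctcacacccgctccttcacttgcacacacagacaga
The gene without a measurable level, Nr4a3, held as many copies as those that were measured.

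Each dose group was set against vehicle to ask whether BghiP altered these receptors. At D1, D2 and D3 the calls numbered 0 of 33 lung receptors, 0 of 37 liver receptors and 0 of 34 forestomach receptors, where limma called 0% of all probes in each of these 9 comparisons. Slopes on dose, called on the adjusted p alone, gave 0 receptors too. They were called for 0% of all probes in lung, for 0.239% in liver and for 0% in forestomach. An F statistic with residual shuffling also called 0 receptors, and 0 of all probes, in all 9 comparisons. With slide as a block 0 receptors were called, where 0.306% of all probes were called for the lung slope, 2.61% for the liver slope, 0.0677% at D3 in lung and 0.0927% at D3 in liver. At an unadjusted p under 0.05, D3 gave 0 receptors in lung (4.81% of all probes), 2 in liver (12.1%) and 1 in forestomach (1.5%). With slide as a block these counts were 2 (15.6%), 5 (17.9%) and 2 (6.41%).

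In liver, the 2 receptors with an unadjusted p under 0.05 at D3 without the block were both estrogen receptors. Esr1 was at 1.82, 1.95, 2.02, 2.33 and 2.34 at D3, within the range of the D0 values of 1.81 to 2.85 (difference -0.34, SE 0.16, adjusted p = 0.403). A second Esr1 probe gave 0.04 (adjusted p = 0.935). Esr2 was at 0.46, 0.62, 0.68, 0.71 and 0.77 at D3 and at 0.69, 0.89, 0.89, 0.96 and 1.27 at D0, overlapping in 2 D3 mice (difference -0.29, SE 0.13, adjusted p = 0.371). On the slope, 6 of 37 receptors had an unadjusted p under 0.05, where 14.8% of all probes did. With slide as a block 6 did too, all with negative slopes, against 20.6%. Nr1h2 was then no longer among them, and Rarg was, with the lowest p (adjusted p = 0.0705). Over the 25 mg/kg-bw/day range the fitted slopes were -0.36 for Esr1, -0.35 for Nr5a2, -0.32 for Esr2, -0.32 for Rora (the clock regulator ROR-alpha), -0.29 for Nr6a1 (GCNF, a germ cell repressor) and 0.22 for Nr1h2 (LXR-beta), with adjusted p from 0.212 to 0.29. Rora lay below its D0 range of 2.54 to 2.81 in all 5 D2 mice, at 2.11 to 2.46, but 1 D3 mouse was at 2.98. A second probe of Nr5a2 had a D3 difference of 0.10 where the brightest had -0.32. The liver values by dose show how far the groups overlap.

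**Figure D3:**
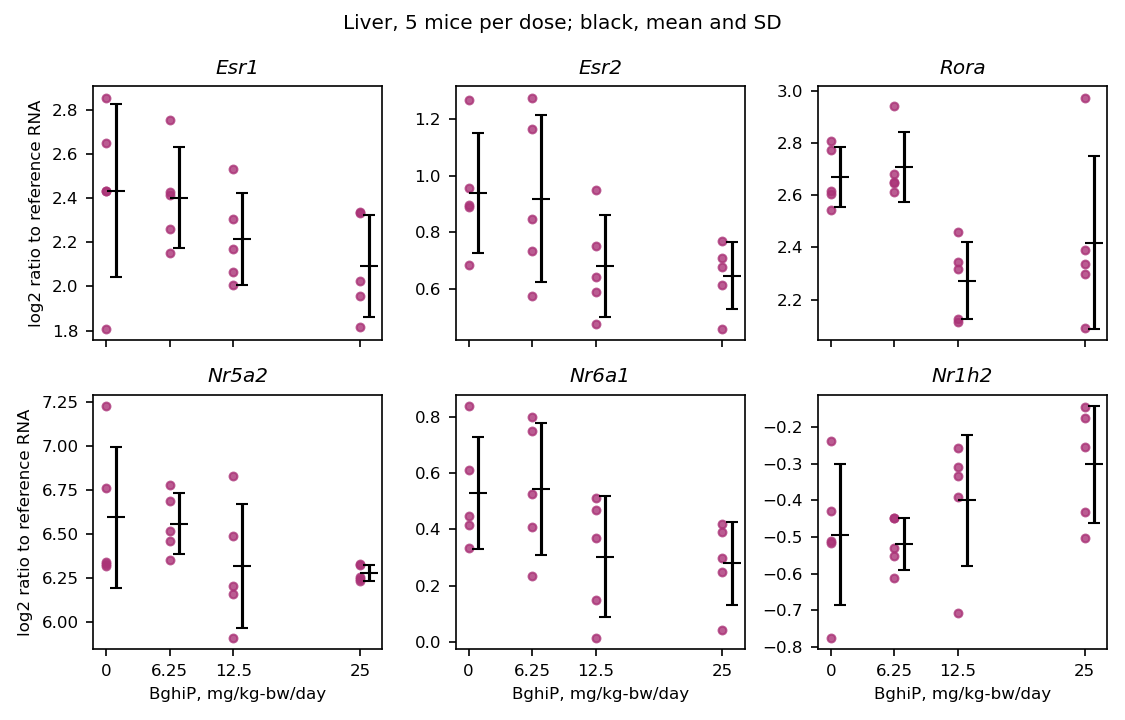
Log2 ratio to reference RNA (vertical axis) in liver against BghiP dose in mg/kg-bw/day (horizontal axis) for the 6 receptors with an unadjusted slope p under 0.05 in the fit without a slide block; points are mice, 5 per dose, and black marks are means with SD. D3 values of Esr1, 1.82 to 2.34, lie within the D0 range of 1.81 to 2.85.

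In forestomach at D1, 0 receptors were called, and the estrogen-related receptors Esrra and Esrrg had the lowest unadjusted p-values. Esrrg was at 0.19, 1.40, 4.97, 5.16 and 6.03 in the D1 mice and at -0.12, -0.08, 0.13, 0.57 and 1.84 at D0 (difference 3.08, SE 1.08, adjusted p = 0.506). Esrrb was at 0.00, 0.95, 2.14, 2.24 and 2.86 at D1 (difference 1.19, SE 0.48), and Esrra differed by 0.47 (SE 0.14). Fitted differences of Nr1h4, Nr0b2 and Nr1i2 were 0.91, 0.84 and 0.79, against D0 arrays of which 0, 1 and 0 of 5 had them well above background, while 3 of 5 D1 arrays did for each. Nr1h4 and Nr1i2 were thus tested in forestomach only through dosed arrays. Of 34 receptors, 7 had an unadjusted p under 0.05 at D1, against 9.37% of all probes, and with slide as a block 13 did, 9 higher and 4 lower, against 18.1%. Hepatocyte markers on these arrays summed to 9.2 to 13.9 (median 13.4) at D1 and 10.6 to 11.7 (median 10.8) at D0, and pancreatic acinar markers to a median of 10.6 at D1 and 9.1 at D0, and their part was not tested. With all 60 arrays in the fit, which borrows the spread of the other tissues, Esrrg, Esrrb and Nr1i2 were called at D1 (adjusted p = 0.00713, 0.0226 and 0.0383), as were 3.3% of all probes, with the Nr1i2 call taken against dim D0 signals. A second Esrrg probe gave 2.37 (SE 0.90).

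Values of Esrrg and Esrrb ran with the glandular stomach markers of the same arrays, and the part of those markers in the D1 differences was not tested beyond the covariate fit given here. Marker sums were 19.3 to 20.7 in 4 of 5 D1 mice and 11.6 in mouse 6, against 20.7 in mice 2 and 3 and 9.2 to 11.2 in the other 3 D0 mice. The 9 forestomach arrays with Esrrg above 1 (mice 2, 7, 8, 9, 10, 12, 13, 14 and 19) all had marker sums of 19.3 or more, and mouse 3 was the only other array at that level, with Esrrg at 0.57. The arrays of mice 15, 20 and 16 had sums of 14.1, 16.3 and 18.4 with Esrrg at -0.18, 0.22 and 0.27, while their Hnf4a was already at 2.81, 2.32 and 1.83. Atp4a, the proton pump subunit of parietal cells, was at 5.15 or more on all 10 arrays with sums of 19.3 or more, at 3.13 in mouse 16 and 2.63 in mouse 20, and at 0.42 or less on the others, mouse 15 included. With the marker sum as a covariate, an alternative added after the data had been seen, the D1 difference of Esrrg was 2.08 (SE 0.87, adjusted p = 0.859), that of Esrrb 0.67 and that of Nr1i2 0.55, whereas that of Esrra was 0.45. The covariate itself passed an adjusted p of 0.05 for 7 of 34 receptors, Hnf4a (0.33 per log2 unit), Esrrg (0.24), Esrrb (0.13), Rara (0.11) and Nr4a2 (0.10) with the markers and Rora (-0.12) and Nr1h3 (-0.06) against them, where it did so for 8.96% of all probes.

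**Figure D4:**
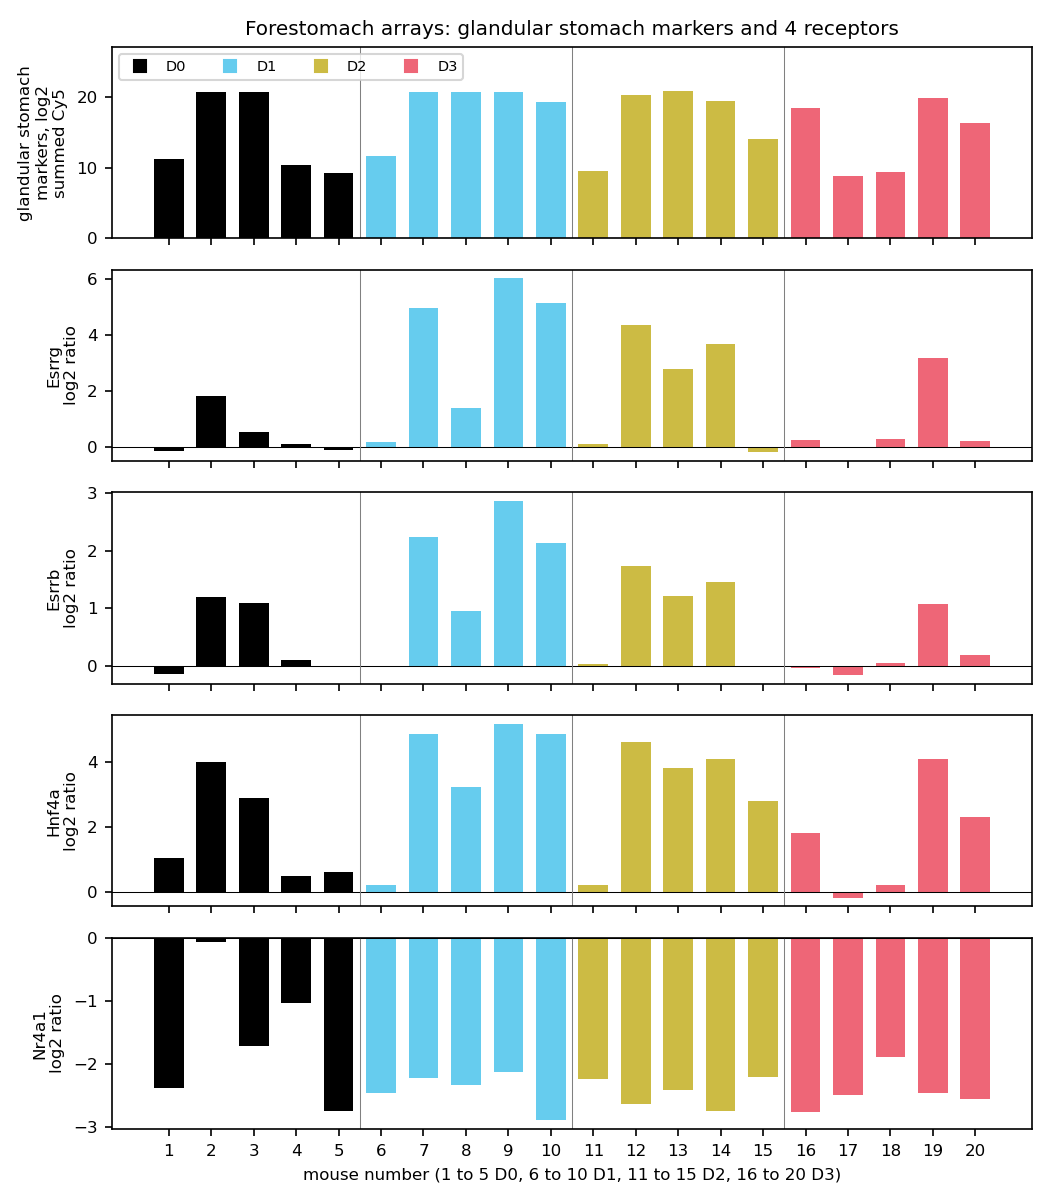
Forestomach arrays of mice 1 to 20 (horizontal axis, coloured by dose): log2 summed Cy5 of 6 glandular stomach markers (top) and log2 ratios to reference RNA of Esrrg, Esrrb, Hnf4a and Nr4a1 (bars, 1 mouse each). Esrrg and Esrrb bars stand on arrays with marker sums of 19.3 or more, and the least negative Nr4a1 value, -0.07, is in D0 mouse 2.

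Nr4a1 was the forestomach receptor with an unadjusted p under 0.05 at D3 without the slide block. It was at -2.76, -2.55, -2.50, -2.45 and -1.89 at D3 and at -2.75, -2.38, -1.71, -1.03 and -0.07 at D0 (difference -0.84, SE 0.35, adjusted p = 1.00), with like differences of -0.82 at D1 and -0.86 at D2, taken against the same D0 arrays. The highest D0 value came from mouse 2, the array with lung markers, and lung values of Nr4a1 were -1.62 to -0.22 at D0. Without it the D3 difference was -0.46 (SE 0.27, adjusted p = 1.00), and centring on the median without loess gave -0.15, where that scaling moved the median of all probes to 0.33. The other immediate early genes on a list of 7 (Fos, Fosb, Egr1, Jun, Junb, Ier2 and Atf3) were all lower at D3 in forestomach, 7 of 7 with a median of -0.45 where 52.2% of all probes were higher, and 0 were called. Without mouse 2, 6 of 7 were lower with a median of -0.29. With all mice, 0 of 7 had an unadjusted p under 0.05 without the slide block, against 1.5% of all probes, and 6 with it (adjusted p = 0.776), against 6.41% of all probes. In lung 5 of 7 and in liver 4 of 7 of them were higher, where 52.6% of all probes in lung and 49.9% in liver were.

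The correlation of Nr4a1 with Nr4a2 did not pass in any tissue. After the dose means were removed, Pearson's r over 20 mice was 0.32 in lung (permutation p = 0.166), 0.41 in liver (permutation p = 0.0732) and 0.41 in forestomach (permutation p = 0.0743), with Spearman's rho of 0.28, 0.47 and 0.32 (permutation p = 0.235, 0.0398 and 0.167). After adjustment over the 3 correlations the Pearson p-values were 0.166, 0.111 and 0.111, and those of rho were 0.235, 0.119 and 0.235. Without the 2 mice farthest from the Nr4a1 median, r was 0.18, 0.44 and 0.23. With the slide means also removed, r was 0.05, -0.19 and 0.08. Centring on the median without loess gave r = 0.79 in lung (adjusted permutation p = 9e-05), 0.34 in liver and 0.30 in forestomach.

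Genes that work with these receptors were followed on fixed lists at D3. Of 13 coregulators, 12 were tested in lung, 13 in liver and 12 in forestomach, and 0 were called. Of the 10 CAR and PXR targets tested in liver, 5 were higher and 5 lower with a median of -0.02, and Cyp2c55, an inducible P450, had the lowest p (0.71, SE 0.22, adjusted p = 0.209). LXR targets in liver were higher in 8 of 10 with a median of 0.14. Srebf1, the activator of fatty acid synthesis, was 1 of the 2 that were lower, at -0.42 (SE 0.13, adjusted p = 0.216). PPAR-alpha targets in liver were higher in 11 of 14 with a median of 0.19, and Cpt1a, which admits fatty acids to mitochondria, differed by 0.46 (SE 0.17, adjusted p = 0.285), whereas Ppara itself was at 6.91 to 7.26 at D3 and 6.90 to 7.48 at D0. HNF4-alpha targets were lower in 6 of 6 with a median of -0.14. For these lists the share of all probes that were higher in liver at D3 was 49.9%, and 0 list genes were called in any tissue. Among glucocorticoid receptor targets, Tsc22d3 (GILZ) was at a difference of -0.54 in liver (SE 0.18, adjusted p = 0.241).

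Whether the D3 change differed between tissues was tested as an interaction. 0 of 38 receptors were called in each of the 3 contrasts, as were 0% of all probes. Unadjusted p fell under 0.05 for Nr4a1 (forestomach minus lung -1.17, SE 0.48; liver minus forestomach 1.06), Nr5a2 (liver minus lung -0.75, SE 0.32) and Esr1 (liver minus forestomach -0.60, SE 0.21), with adjusted p of 1.00 for each. That was 1 of 38 receptors against 2.96% of all probes for liver and lung, 1 of 38 against 2.06% for forestomach and lung, and 2 of 38 against 4.26% for liver and forestomach. Without the slide block, Nr2c1 and Nr2c2 (the testicular receptors), Nr2f2 and Nr2f6 (of the COUP-TF subfamily), Rarb, Vdr (the vitamin D receptor), Nr3c2 (the mineralocorticoid receptor) and Nr5a1 (SF-1, of steroid-making glands) had no unadjusted p under 0.05 at D3 in any tissue where they were tested. Between D0 tissues, Nr2f6 was higher in liver than in lung (1.57) and forestomach (1.78), Nr5a1 likewise (0.97 and 0.82), Vdr was lower in liver (-0.84 and -1.45), where it was well above background on 2 of 5 D0 arrays, and Nr2f2 was lower than in lung in both liver (-0.91) and forestomach (-0.75). Nr2c1 (0.97) and Nr3c2 (0.63) were called higher in liver than in forestomach, where Nr3c2 did not pass the filter. Nr2c2 (-0.82) and Rarb (-0.73) were called lower in forestomach than in lung.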

How the data were processed

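Total RNA of 60 tissue samples was hybridized to Agilent mouse 2-colour arrays, tissue in Cy5 and universal reference in Cy3, with no dye swap. Per the file headers, spot intensities were extracted with Feature Extraction 10.7.3.1. The authors also deposited log2 ratios after their own LOWESS normalization, with column medians of -0.04 to -0.01. Here log2 ratios were made from the median intensities without background subtraction, by loess within each array, after 0.46% of values were set missing for outlier flags. They correlated with the deposited ratios at 0.992 to 0.999 across probes. Of 55681 probes, 47.4% had a symbol through RefSeq accessions (GRCm38.p6 table, used for names). A probe was tested in a tissue if well above background on 5 of its 20 arrays, or for D0 tissues on 3 of 5 arrays of either tissue. limma 3.58.1 in R 4.3.3 was used with Benjamini-Hochberg adjustment over all probes tested. Adjusted p-values in the report are from limma, except those of the Nr4a1 and Nr4a2 correlations, which are adjusted permutation p-values. The script was tested on simulated data. The members and lists were chosen with earlier results of these data known. Full statistics (for slopes, the slope and the range of adjusted p) were given, by rule, for the 5 called receptors with the largest difference in each direction between D0 tissues, for at most 8 per tissue with an unadjusted p under 0.05 at D3 or for the slope, and for at most 3 genes per list with an unadjusted p under 0.01. A result that this rule would name is not reported here. The forestomach receptors at D1, and Cpt1a, were described after their values had been seen, and the promoters and motifs shown were chosen likewise. The thresholds of 2 and 4 copies used for shares over all promoters equal the copies found in the promoters shown. The same mouse number marks the same animal. Deviations from group means in the same mouse correlated at a median of 0.25 between forestomach and lung, 0.07 between liver and lung and 0.01 between liver and forestomach. Lung and forestomach of a mouse always shared a slide, so that mouse and slide cannot be told apart for that pair of tissues. Alternatives were other background corrections and scalings, filters, blocks for mouse and slide, and single mice left out. The number of arrays limits the precision.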

Additional observations from a re-analysis of the deposited data

Results flagged for a closer look

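Groups were examined for the receptors given with full statistics (D0 in each tissue, all doses in liver for those with a liver dose value) and for 5 receptors in forestomach at all doses. Of 85 groups of 5 mice, 6 held a value far from the other 4 (Dixon's ratio over 0.71), and chance gives about 1 in 20. Over all 415 complete groups of tested receptors, 24 did. In D0 lung, Nr2f1 was at -1.78 in mouse 1, whose array held muscle and keratinocyte markers, against -1.42 to -1.34. In D0 liver, Nr0b2 was at 2.46 in mouse 2 against 4.61 to 5.15, and Rara was at 0.17 in mouse 4 against -0.55 to -0.35. In D1 liver, Rora was at 2.95 in mouse 6 against 2.61 to 2.68. In D3 forestomach, mouse 19 had Esrrg at 3.20 against -0.02 to 0.31 and Esrrb at 1.08 against -0.16 to 0.19, with glandular stomach markers at 19.8.

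In tissues where a receptor had not passed the filter, 3 values stood above background and above the D0 values. Hnf4a was at 2.06 and Nr1i3 at 0.41 in the D3 lung of mouse 20, where D0 lungs were at -0.42 to -0.07 and -0.19 to 0.07. Hepatocyte markers were at 13.7 on that array. Nr1i3 was at 0.44 in the D2 forestomach of mouse 15, against -0.18 to -0.01 at D0, with hepatocyte markers at 14.4. The part of those markers was not tested.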

How the results depend on the processing

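Counts of receptors called between D0 tissues ranged from 28 to 29 for liver and lung, from 14 to 16 for forestomach and lung and from 25 to 28 for liver and forestomach when single mice were left out, and all dose, slope and interaction counts were then 0. With mouse as a replicate block the D0 counts were 28, 14 and 29, and 0 interactions were called. The block ended the call of Ppard between forestomach and lung. A requirement of signal in both tissues gave 18 for liver and forestomach, with fewer receptors tested. In forestomach at D1, 3 receptors were called with all 60 arrays in the fit. For Nr4a1 with Nr4a2, 1 of 3 correlations passed on median-centred ratios (lung, 0.79), and the liver r was -0.19 with slide means removed; the cause was not tested. Scaling between arrays by Aquantile leaves log ratios as they are by construction. Dim receptors, such as Nr4a3, could not be measured at this signal over background.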

Other observations

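Targets of PPAR-alpha in forestomach were higher at D3 in 10 of 12 with a median of 0.19, and those of PPAR-gamma were lower in 5 of 6 with a median of -0.44, with 0 called in either list, where 52.2% of all probes were higher. Fat cell markers on the forestomach arrays summed to 8.6 to 15.4 (median 11.9) at D0 and 9.1 to 12.8 (median 9.6) at D3, and their part was not tested. Estrogen-related receptor targets were higher in 3 of 4 in liver and in forestomach, and 0 were called, where 49.9% of all probes in liver and 52.2% in forestomach were higher.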
